A study of Homo sapiens with 6 samples.

Results

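Core autophagy genes are those whose products start, build and close the autophagosome. The 36 genes examined here were taken as a list of gene symbols, with older and newer names counted as the same gene, and no threshold on measured values entered the list, although it was drawn up with earlier results of these data known. They had 57 probes on the array. Of these, 34 genes with 46 probes were above background often enough to be tested, out of 11426 genes and 20051 probes tested in all. The remaining 2 genes, TFEB and NBR1, did not pass the filter on dim probes.

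The study asked which transcripts change when the microRNA miR-138 is inhibited in MDA-MB-231, an established basal breast cancer cell line. Cells received 6 transduction units of lentivirus carrying either antagomiR-138 (antimiR-138 in the labels) or a scrambled control sequence, and were harvested 72 h later, on day 3. There were 3 Illumina bead arrays of antagomiR-138 cells and 3 of scrambled control cells. Both groups carried the same kind of vector, in which an H1 promoter drives the antagomiR in all transduced cells beside a fluorescent reporter and a puromycin resistance gene, so neither group was untreated and the results belong to 1 cell line. The labels number the replicates without saying whether they were separate cultures, so the p-values speak only of how far these particular samples scatter, and that scatter may be technical.

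Autophagy encloses cytoplasm in a double membrane and delivers it to the lysosome for breakdown. A kinase complex around ULK1 starts the process, a lipid kinase complex around BECN1 marks the membrane, WIPI proteins read that mark, and ubiquitin-like conjugation enzymes attach ATG8 family proteins to the growing membrane. In breast cancer cells, autophagy is best known as a response to starvation and other stress.

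The inhibited microRNA is shown first because it is the only sequence that the treatment addressed. Its mature form, from RefSeq on GRCh38.p14, is encoded at chr3:44114234-44114256 and again at chr16:56858527-56858549, both on the plus strand, and capitals mark the seed, bases 2 to 8.
hsa-miR-138-5p: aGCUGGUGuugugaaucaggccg

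Promoter sequence was searched for the E-box CACGTG and for the CLEAR core TCACGTGA, an 8-base element that TFEB and its relatives bind and that contains the E-box. Both motifs read the same on both strands. RefSeq promoter windows of 300 bases, from 250 before the start to 50 after it, were found for 32 of the 36 genes, 6 of them with several windows, which gave 39 windows. The E-box was in 3 of these 39 (7.69%), against 7.26% of all 35116 windows, and the CLEAR core was in 1 (2.56%), against 0.980%. The shares of E-box windows were close to each other, and a match of letters is a description, not evidence of binding. The matches are printed because ATG3, ATG14 and ULK3 were the members that held one, and capitals mark the motif. All 4 lie on the minus strand of GRCh38.p14, at chr3:112561963-112561992, chr3:112561940-112561969, chr14:55411834-55411863 and chr15:74843311-74843340.
ATG3, E-box: cctttctcacgtCACGTGccgggagagtct
ATG3, CLEAR core: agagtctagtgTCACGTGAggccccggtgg
ATG14, E-box: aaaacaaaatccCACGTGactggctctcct
ULK3, E-box: cctccgtatcccCACGTGggccctgcagga
These genes did not share a direction, since ATG3 was higher, ATG14 lower and ULK3 not past the threshold in antagomiR-138 cells, as described with their values further on.

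Across the 11426 genes tested, the arrays of a group correlated at 0.996 and arrays of different groups at 0.962 to 0.964. Between 19263 and 20430 probes per antagomiR-138 array and between 19377 and 20247 per scrambled control array were above background, which is a detection p-value under 0.05. The cell line label was checked against marker genes. All 11 basal and mesenchymal breast line markers were above background on every array. Their summed signal was 133160 to 135310 in antagomiR-138 cells against 149610 to 152810 in scrambled control cells. At a limma adjusted p under 0.05, 5 were lower (45.5%, against 29.1% of all genes) and 2 higher (18.2%, against 30.9%). Of 12 luminal markers, ESR1, FOXA1, PGR and TFF1 were above background on none. In each group, however, 6 luminal markers were above background on all 3 arrays, with KRT19, ERBB2, EPCAM, GATA3 and AGR2 among them in both. The luminal list thus did not go one way. Its summed signal was 5907 to 6129 in antagomiR-138 cells against 6922 to 7103 in scrambled control cells, with ERBB2 at -1.15 and AGR2 at 0.64. Of 9 fibroblast markers, FAP, PDGFRA and THY1 were above background on no array, and the summed signal of the list was 1045 to 1165 in antagomiR-138 cells against 647 to 666 in scrambled control cells. Its members went both ways, with log2 fold changes of 1.88 for COL1A2 and 1.39 for LUM but -1.70 for PDGFRB and -0.35 for DCN. LUM was above background on only 1 scrambled control array, and DCN on only 1 antagomiR-138 array. Their fold changes thus rest partly on signals not above background. COL1A1 was above background in antagomiR-138 cells only. Of 5 leukocyte markers, PTPRC and CD3E were above background on no array, and the summed signal was 5505 to 6100 in antagomiR-138 cells against 6084 to 6723 in scrambled control cells, with CD14 at 1.48 and CD68 at -0.64. The part of these signals in the differences below was not tested. In bulk RNA, fewer cells and less RNA per cell cannot be told apart.

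Of the 34 autophagy genes tested, 23 passed the threshold, an adjusted p under 0.05 from limma over all 11426 genes. That is 67.6%, against 60.1% of all genes. The direction was uneven: 19 were higher in antagomiR-138 cells (55.9%, against 30.9% of all genes) and 4 were lower (11.8%, against 29.1% of all genes). The 4 lower genes include ATG13, which was above background in scrambled control cells only and so entered through its higher group. Without it, 22 of 33 passed and 3 were lower. The changes were mostly small, with 7 at least 1.5-fold higher (20.6%, against 11.4% of all genes). By measured value, 1 gene, ATG13, was at least 1.5-fold lower (2.94%, against 13.8% of all genes). No autophagy gene above background in both groups was at least 1.5-fold lower. For ATG13 the measured difference passes that size but its bound, at least 1.38-fold, does not. In 26 genes the 3 arrays of one group all lay above the 3 of the other (76.5%, against 66.6% of all genes). The median log2 fold change, antagomiR-138 over scrambled control, was 0.21 for the autophagy genes and 0.02 for all genes, whereas the median size without regard to sign was 0.28 and 0.32. By median size the autophagy genes changed no more than all genes, but more of them lay on the higher side, a balance that was not itself tested. The threshold and the scaling both moved the number called: 12 genes were higher at an adjusted p under 0.01 (against 22.8% of all genes), and 11 when arrays were scaled to a common median in place of shared quantiles (against 21.6% of all genes, itself below the 30.9% above).

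**Figure D1:**
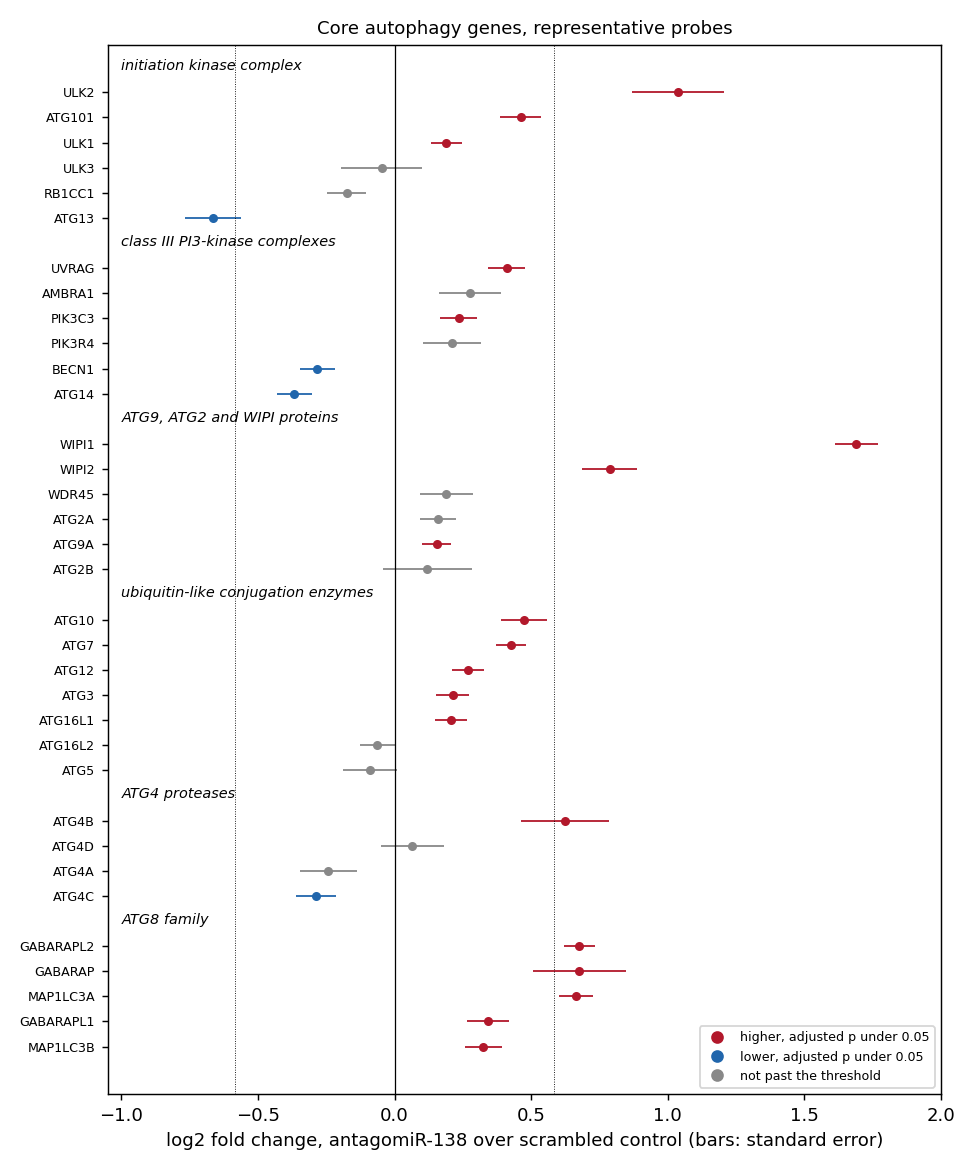
Log2 fold change of the 34 tested autophagy genes (x axis, antagomiR-138 over scrambled control), grouped by role; points are the estimates and bars the standard error. Red marks the 19 genes higher and blue the 4 lower at an adjusted p under 0.05, and dotted lines mark 1.5-fold. WIPI1 lies farthest to the right at 1.69. ATG13 is drawn at its measured difference, although it was not above background in antagomiR-138 cells and only a bound of at least 1.38-fold lower holds for it.

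In the initiation complex, ULK2 and ATG101 were higher, ULK1 slightly higher, and ATG13 was above background in scrambled control cells only. ULK2 is one of the related kinases that start autophagy. Its log2 signal was 8.51, 7.99 and 7.99 in antagomiR-138 cells, against 6.90, 7.29 and 7.19 in scrambled control cells. The groups did not overlap, and the first antagomiR-138 array stood above the other two. The log2 fold change was 1.04 (SE 0.168, adjusted p = 0.00159), or 2.05-fold. ATG101, which stabilises ATG13, averaged 9.70 ± 0.0173 in antagomiR-138 cells and 9.24 ± 0.129 in scrambled control cells (SD, n = 3 each), a log2 fold change of 0.46 (limma adjusted p = 0.00172). The kinase ULK1 was higher by 0.19 on its brighter probe (adjusted p = 0.0242), or 1.14-fold. Its other probe above background gave 0.24. The call for ULK1 was lost without antagomiR-138 replicates 2 or 3 or scrambled control replicates 1 or 2.

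ATG13 is the adaptor that links the kinases to the rest of the complex. Its 1 probe gave 5.34, 4.99 and 5.30 in antagomiR-138 cells, against 5.83, 5.93 and 5.86 in scrambled control cells. It was above background on all 3 scrambled control arrays and on none of the antagomiR-138 arrays. Because the probe passed the filter through the scrambled control group alone, a difference was built into its entry. Its p-value therefore carries no weight and is not given. As a bound, the signal was at least 1.38-fold lower in antagomiR-138 cells, taking the undetected arrays at the higher of their own signal and the lowest signal of a detected probe.

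The scaffold RB1CC1 ranged from 9.86 to 10.06 in antagomiR-138 cells and from 10.08 to 10.16 in scrambled control cells. These ranges did not overlap, yet the difference of -0.17 missed the threshold (adjusted p = 0.0721). ULK3, a related kinase, overlapped between groups, with a log2 fold change of -0.05 (adjusted p = 0.804), and it was above background on 3 antagomiR-138 arrays and 2 scrambled control arrays.

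The class III PI3-kinase genes split. The adaptors BECN1 and ATG14 were lower, and the catalytic subunit PIK3C3 and the alternative adaptor UVRAG were higher. ATG14, which directs the kinase to the site of autophagosome formation, ranged from 9.07 to 9.19 in antagomiR-138 cells and from 9.45 to 9.57 in scrambled control cells, a log2 fold change of -0.37 (SE 0.0634, adjusted p = 0.00220). BECN1, the central regulatory subunit, ranged from 10.34 to 10.47 in antagomiR-138 cells and from 10.65 to 10.77 in scrambled control cells, a log2 fold change of -0.28 (SE 0.0646, adjusted p = 0.00778). Neither gene overlapped between groups, although both changes were under 1.5-fold and that of BECN1 missed the threshold under median scaling.

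UVRAG takes the place of ATG14 in a kinase complex that acts on endosomes. Its brighter probe gave 9.22, 9.21 and 9.23 in antagomiR-138 cells, against 8.93, 8.74 and 8.75 in scrambled control cells. These did not overlap, and the log2 fold change was 0.41 (adjusted p = 0.00191). The dimmer probe gave 6.07, 6.50 and 6.26 in antagomiR-138 cells, against 6.41, 6.07 and 5.85 in scrambled control cells. Here the groups overlapped and the difference of 0.16 missed the threshold (limma adjusted p = 0.456 over all probes), so the call for UVRAG rests on 1 of its 2 probes.

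PIK3C3, which makes the lipid that marks the membrane, was higher by 0.23 (adjusted p = 0.0198), or 1.18-fold, with no overlap. The regulatory subunit PIK3R4 gave 0.21 (adjusted p = 0.128) and AMBRA1, a scaffold that binds BECN1, gave 0.28 (adjusted p = 0.0709). Both overlapped between groups. The call for PIK3C3 was lost without antagomiR-138 replicate 1 and without scrambled control replicate 2.

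Among the genes for lipid supply and mark reading, WIPI1 and WIPI2 were clearly higher. WIPI1 binds the lipid made by PIK3C3 at the forming autophagosome and had the highest fold change of the 34. Its log2 signal was 10.44, 10.31 and 10.48 in antagomiR-138 cells, against 8.71, 8.62 and 8.83 in scrambled control cells. The groups were far apart relative to the spread within each, with a log2 fold change of 1.69 (SE 0.0795, adjusted p = 8.97e-06), or 3.23-fold. A larger change in either direction was seen in 1.68% of all genes tested.

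WIPI2 recruits the ATG16L1 complex to the marked membrane. It gave 8.38, 8.27 and 8.46 in antagomiR-138 cells, against 7.66, 7.71 and 7.38 in scrambled control cells. The groups did not overlap, and the log2 fold change was 0.79 (SE 0.102, adjusted p = 0.000560), or 1.73-fold. A further WIPI2 probe was above background on no array.

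The rest of this group changed little. ATG9A, the membrane protein whose vesicles seed the autophagosome, was higher by 0.15 (adjusted p = 0.0413), or 1.11-fold, the least of the 19. With all probes tested together neither of its 2 probes above background passed the threshold (adjusted p = 0.0690 and 0.0728), and its call was lost without any one of the 6 arrays. The lipid transfer proteins ATG2A and ATG2B gave 0.16 (adjusted p = 0.0773) and 0.12 (adjusted p = 0.552), and WDR45, a WIPI relative, gave 0.19 (adjusted p = 0.136). ATG2A did not overlap between groups, whereas ATG2B and WDR45 did.

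**Figure D2:**
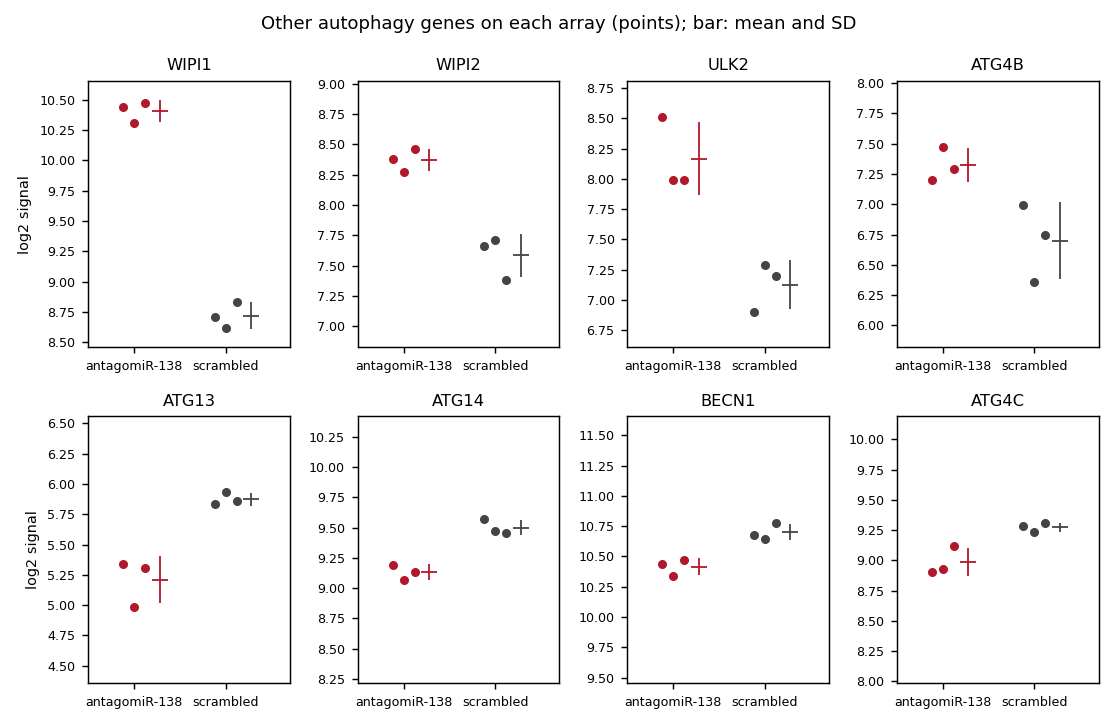
Log2 signal (y axis, each panel on its own level) of WIPI1, WIPI2, ULK2, ATG4B, ATG13, ATG14, BECN1 and ATG4C on each array; red points are antagomiR-138 and grey points scrambled control, with the mean and SD of 3 arrays beside them. The antagomiR-138 points lie above in the first 4 genes and below in the last 4, with no overlap in any of the 8. All 8 were drawn from genes past the threshold, and 66.6% of all genes had no overlap. ATG13 was not above background in antagomiR-138 cells, so its separation was built into its entry.

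Among the conjugation enzymes, the changes that passed the threshold were small rises. Of 7 genes, 5 were higher (71.4%, against 30.9% of all genes) and none was lower (against 29.1% of all genes). Each of the 5 was under 1.5-fold on its brighter or only probe. ATG7, the activating enzyme shared by the ATG12 and ATG8 pathways, averaged 9.97 ± 0.0374 in antagomiR-138 cells and 9.54 ± 0.0373 in scrambled control cells (SD, n = 3 each), a log2 fold change of 0.43 (limma adjusted p = 0.000538). ATG12, the ubiquitin-like protein that is joined to ATG5, was higher by 0.27 (adjusted p = 0.00629), and its dimmer probe by 0.41. ATG10 joins ATG12 to ATG5 and was higher by 0.47 on its brighter probe (adjusted p = 0.00251). Its dimmer probe was above background on all 3 antagomiR-138 arrays and on no scrambled control array, which gives a bound of at least 1.54-fold higher in antagomiR-138 cells. That probe passed the filter through the antagomiR-138 group alone, so its difference was built into its entry.

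ATG3 is the enzyme that transfers ATG8 proteins to the membrane lipid. Its brighter probe gave 10.96, 10.81 and 10.87 in antagomiR-138 cells, against 10.64, 10.68 and 10.69 in scrambled control cells, a log2 fold change of 0.21 (adjusted p = 0.0187). The dimmer probe gave 7.09, 6.99 and 7.27 in antagomiR-138 cells, against 6.63, 6.97 and 7.02 in scrambled control cells. The brighter probe did not overlap between groups, whereas the dimmer one did and missed the threshold with a similar difference of 0.24.

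ATG16L1 forms with ATG12 and ATG5 the complex that places ATG8 proteins. Its brighter probe gave 9.80, 9.87 and 9.86 in antagomiR-138 cells, against 9.56, 9.68 and 9.67 in scrambled control cells, a log2 fold change of 0.21 (adjusted p = 0.0200). The dimmer probe gave 9.32, 9.39 and 9.50 in antagomiR-138 cells, against 9.24, 9.29 and 9.28 in scrambled control cells. Neither probe overlapped between groups, but the difference of 0.14 on the dimmer one missed the threshold (limma adjusted p = 0.153 over all probes). ATG5 gave -0.09 (adjusted p = 0.455) and ATG16L2, a paralogue of ATG16L1, gave -0.06 (adjusted p = 0.431), both with overlapping groups. ATG12 and ATG16L1 were higher while the third part of their complex, ATG5, missed the threshold. Whether the changes of these genes differ from each other was not tested. The calls for ATG3, ATG12 and ATG16L1 were lost under median scaling, that of ATG3 also without scrambled control replicate 1, and that of ATG16L1 also without antagomiR-138 replicates 2 or 3 or scrambled control replicate 1.

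The ATG4 proteases trim ATG8 proteins before conjugation and release them afterwards. They went in different directions. ATG4B, the main protease for ATG8 proteins in human cells, gave 7.20, 7.47 and 7.29 in antagomiR-138 cells, against 6.99, 6.36 and 6.74 in scrambled control cells. The groups did not overlap, although the scrambled control arrays scattered widely, and the log2 fold change was 0.62 (SE 0.161, adjusted p = 0.0133), or 1.54-fold. A further ATG4B probe was above background on no array.

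ATG4C was lower. Its brighter probe gave 8.90, 8.93 and 9.12 in antagomiR-138 cells, against 9.28, 9.23 and 9.31 in scrambled control cells, a log2 fold change of -0.29 (SE 0.0732, adjusted p = 0.0121). The dimmer probe gave 5.56, 4.93 and 5.29 in antagomiR-138 cells, against 5.37, 5.67 and 5.60 in scrambled control cells. It was above background on 1 antagomiR-138 array and 3 scrambled control arrays, its groups overlapped, and the same difference of -0.29 missed the threshold (limma adjusted p = 0.194 over all probes). ATG4A gave -0.24 (adjusted p = 0.0840) without overlap, and ATG4D gave 0.06 (adjusted p = 0.658) with overlap.

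All 5 ATG8 family genes were higher in antagomiR-138 cells, against 30.9% of all genes. In each the groups did not overlap, as was so in 66.6% of all genes. These small proteins are attached to the autophagosome membrane, where they bind cargo receptors and help the membrane grow and fuse. GABARAPL2 gave 12.03, 11.98 and 12.08 in antagomiR-138 cells, against 11.33, 11.34 and 11.39 in scrambled control cells. The arrays of each group lay close together, and the log2 fold change was 0.68 (SE 0.0566, adjusted p = 7.78e-05), or 1.60-fold. Its dimmer probe gave 0.54 (limma adjusted p = 0.00260 over all probes).

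MAP1LC3A, an LC3 protein, gave 10.06, 10.12 and 10.17 in antagomiR-138 cells, against 9.39, 9.50 and 9.46 in scrambled control cells. Again the arrays within each group were close, and the log2 fold change was 0.66 (SE 0.0609, adjusted p = 0.000117), or 1.58-fold. Of its other 2 probes, 1 was above background on a single antagomiR-138 array and the other on no array.

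GABARAP gave 7.60, 7.56 and 7.90 in antagomiR-138 cells, against 7.31, 7.05 and 6.68 in scrambled control cells. The fold change matched that of GABARAPL2, at 0.68 on the log2 scale, but the arrays scattered more (SE 0.169, adjusted p = 0.0117). GABARAPL1 ranged from 8.75 to 8.87 in antagomiR-138 cells and from 8.38 to 8.60 in scrambled control cells, a log2 fold change of 0.34 (adjusted p = 0.00693). MAP1LC3B, the LC3 protein most used as a marker of autophagosomes, ranged from 10.54 to 10.70 in antagomiR-138 cells and from 10.22 to 10.34 in scrambled control cells, a log2 fold change of 0.33 (adjusted p = 0.00528). Its transcript has a near-identical copy, MAP1LC3B2, and which of them the probe bound was not examined. The calls for GABARAPL1 and MAP1LC3B were lost under median scaling, with the direction kept.

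**Figure D3:**
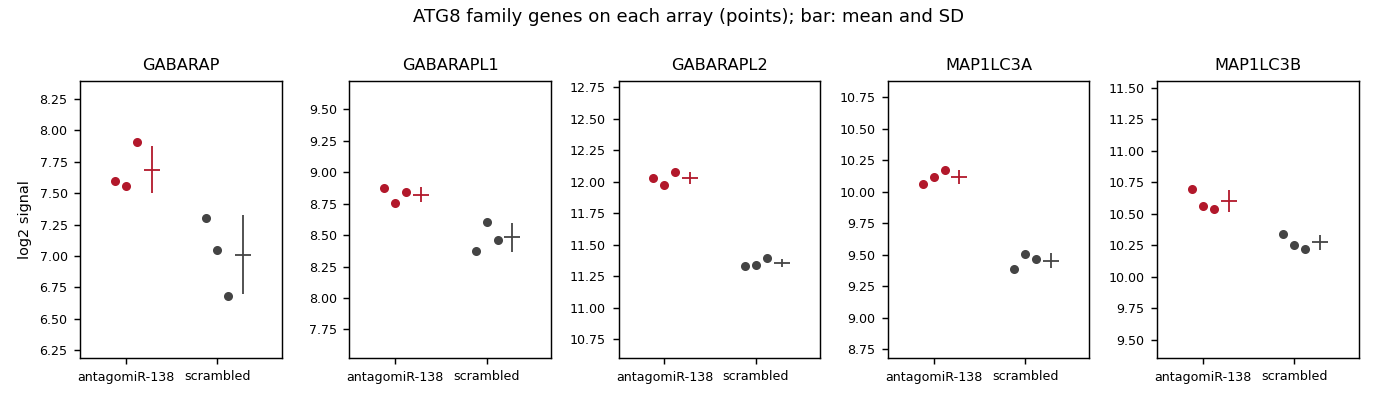
Log2 signal (y axis, each panel on its own level) of the 5 ATG8 family genes on each array; red points are antagomiR-138 and grey points scrambled control, with the mean and SD of 3 arrays beside them. In every panel the 3 antagomiR-138 points lie above the 3 scrambled control points, and GABARAP has the widest scatter.

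TFEB, the transcription factor that switches on lysosomal and autophagy genes, has 1 probe, which was above background on no array (lowest detection p-value 0.0597). NBR1, a cargo receptor that carries ubiquitin-tagged material to ATG8 proteins, has 2 probes, neither above background on any array. Neither gene was tested, and their levels in the groups are bounds only.

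Of the 46 autophagy probes above background, 26 passed the threshold when all 20051 probes were tested together (56.5%, against 49.9% of all probes), 22 of them higher and 4 lower. These include the dimmer ATG10 probe and the ATG13 probe, each of which entered through its higher group alone. There were 12 genes with more than 1 such probe, and in all 12 the probes had the same sign. For ATG10 that adds nothing, because the sign of its dimmer probe was built into its entry. Both probes were higher in ULK1, ATG12 and GABARAPL2, and in ATG10 with the limit just given. Neither passed in ATG9A, WDR45, ATG4A and ATG4D. The calls differed in UVRAG, ATG3, ATG16L1 and ATG4C, and in each of these the brighter probe was the one that passed.

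**Figure D4:**
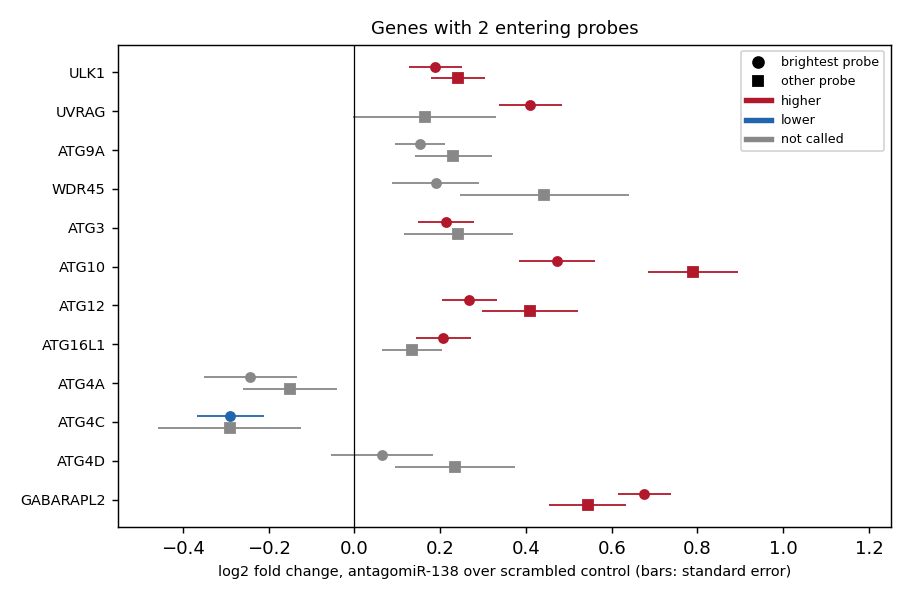
Log2 fold change (x axis, antagomiR-138 over scrambled control) of both probes of the 12 genes with 2 probes above background; circles are the brighter probe, squares the other, bars the standard error, and colour the call over all 20051 probes. Both probes of each gene lie on the same side of 0. The dimmer ATG10 probe is drawn at its measured difference. It was above background in antagomiR-138 cells only, so its side was built into its entry.

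Genes that act around this core did not show one direction, and their counts are read against the 30.9% of all genes that were higher and the 29.1% that were lower. Among other genes of autophagosome formation, 8 of 16 tested were higher (50%) and 2 lower (12.5%), with a median log2 fold change of 0.25. C9orf72, part of a complex that regulates autophagy, was higher by 0.94 and the endoplasmic reticulum protein EI24 by 0.82. TRAPPC8, a tethering subunit, and TP53INP1, a stress protein that binds LC3, each gave -0.44. Of 17 receptors for selective autophagy, 5 were higher (29.4%) and 6 lower (35.3%), with a median of -0.08. The 6 lower include CALCOCO1, above background in scrambled control cells only, so its difference was built into its entry. The adaptor TOLLIP gave 0.71 and the endoplasmic reticulum receptor CCPG1 0.67, whereas the mitochondrial receptor BNIP3L gave -1.43 and SEC62, also a receptor for the endoplasmic reticulum, -1.42. The receptor list thus held both rises and larger falls.

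Of 13 genes for fusion with the lysosome, 4 were higher (30.8%) and 3 lower (23.1%), with a median of 0.09. Here the tethering subunit VPS33A gave 0.97 and the SNARE protein VAMP8 0.55, while VPS41, another tethering subunit, gave -0.78 and TECPR1 -0.28. Of 25 genes that signal nutrients and energy, 9 were higher (36%) and 7 lower (28%), with a median of 0.09. The receptor, fusion and signalling lists thus lay near the shares over all genes. PRKAB2, a subunit of the energy sensor AMPK, gave 1.20 and SESN1, a sestrin, 0.76. DDIT4, an inhibitor of mTORC1, gave -2.00. The AMPK subunit PRKAA2, counted among the 7 lower, was above background on no antagomiR-138 array. It was at least 1.54-fold lower there, a difference built into its entry through the scrambled control group alone.

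Of 11 transcriptional regulators, 1 was higher (9.09%) and 4 lower (36.4%), with a median of -0.18. XBP1, a factor of the unfolded protein response, gave 0.57, while FOXO4 gave -0.84 and TFE3, a relative of TFEB, -0.54. Of 23 lysosomal genes with reported TFEB control, 3 were higher (13%) and 10 lower (43.5%), with a median of -0.16. HEXA gave 0.65 and the proton pump subunit ATP6V0D1 0.39, whereas the protease TPP1 gave -0.92 and the glucosidase GAA -0.88. Apart from PRKAA2 and CALCOCO1, whose p-values carry no weight, all genes named from these lists passed the threshold (limma adjusted p under 0.05). The lists were not tested against the core genes.

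**Figure D5:**
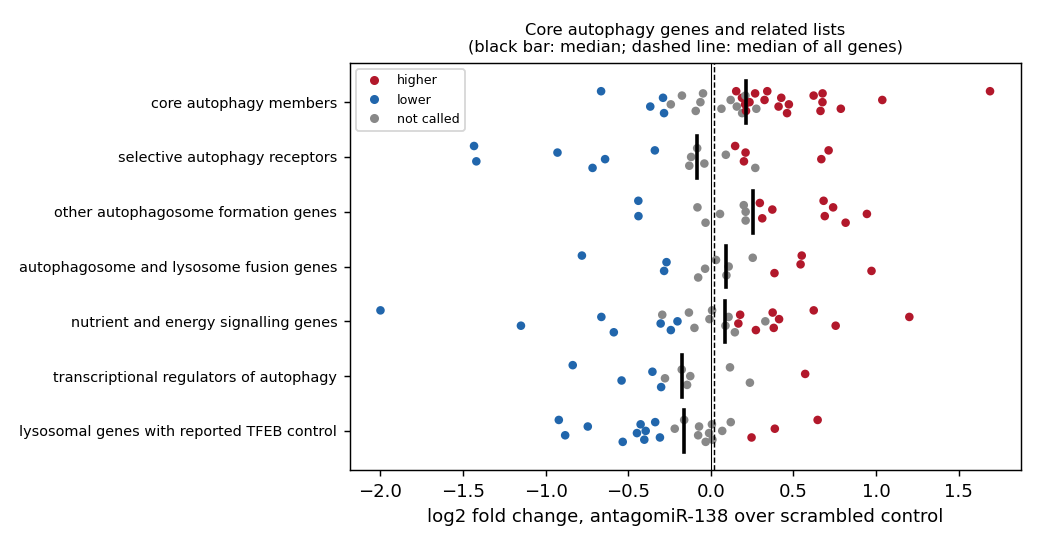
Log2 fold change (x axis, antagomiR-138 over scrambled control) of the tested genes of each list; each point is a gene at its measured value, coloured by its call, the black bar is the list's median and the dashed line the median of all genes, 0.02. The medians run from -0.18 for transcriptional regulators to 0.25 for other autophagosome formation genes, with the core genes at 0.21.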

How the data were processed

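RNA of 3 antagomiR-138 and 3 scrambled control samples was labelled with biotin and hybridised on Illumina bead arrays. The authors deposited linear probe intensity, background-subtracted and not normalised between arrays, with a detection p-value for each, and a table of normalised intensity. BeadStudio and Partek are named in the methods, GenomeStudio 1.9.0 in the submitters' processing notes. Not given in the sources used here are a genome build and the way the second table was normalised.

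Groups and replicate numbers came from the sample labels. Probes were named through the platform annotation, whose symbols were updated by Entrez identifier. Of 47322 probes, 30113 had 1 gene, 8 had several and were not named, and 17201 had none there. With limma 3.58.1 (R 4.3.3), intensities were corrected with normexp from the detection p-values, raised by an offset of 16, quantile normalised and taken to log2. Because of the offset, the fold change of a dim probe is understated. A probe entered if 3 or more arrays had a detection p under 0.05, and a gene was read from its entering probe with the highest mean. All 6 samples went into 1 fit without covariates (lmFit, then eBayes). Its two-sided p-values were adjusted by Benjamini-Hochberg over all 11426 genes, or over all 20051 probes where probes were compared, and the threshold was 0.05. A probe above background on no array of a group was given as a bound, on the scale of this offset. Precision is limited by the number of arrays.

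The members and lists were chosen with earlier results of these data known. Every member is named. Array values are given for members at least 1.5-fold changed, above background in 1 group only, or with probes whose calls differ. From each related list, up to 2 of the strongest rises and 2 of the strongest falls are named. Alternatives covered the offset, background correction, normalisation, the detection filter, the choice of probe, a replicate block, the variance model, the methods' t-test, the threshold and leaving out each sample.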

Additional observations from a re-analysis of the deposited data

How the results depend on the processing

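Against 19 higher and 4 lower autophagy genes, scaling to a common median gave 11 higher (against 21.6% of all genes). An adjusted p under 0.01 gave 12 (against 22.8% of all genes). A change of at least 1.5-fold gave 7 higher (against 11.4% of all genes). It left 1 lower (against 13.8% of all genes), ATG13, whose bound is under 1.5-fold. Median scaling lost ATG12, ATG16L1, ATG3, ATG9A, BECN1, GABARAPL1, MAP1LC3B, PIK3C3 and ULK1, and the share of all genes called was then 48.7%. The cause was not tested. Leaving out 1 sample at a time gave 16 to 18 higher (against 28% to 29.8% of all genes) and 3 to 6 lower. Medians then lay between 0.21 and 0.25 on the log2 scale. Every run that left out a sample lost ATG9A. The 3 lower genes come from leaving out any scrambled control sample, when ATG13 no longer entered and was not tested. ULK1 was also lost without antagomiR-138 replicates 2 or 3 or scrambled control replicates 1 or 2. New calls when a sample was left out were RB1CC1 and ATG4A (without antagomiR-138 replicate 1), AMBRA1 (antagomiR-138 replicate 2), ATG2A (scrambled control replicate 1) and PIK3R4 (scrambled control replicate 2).

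The sign changed only for genes that were not called. With 1 sample left out, ULK3 gave -0.21 to 0.076 (above 0 without antagomiR-138 replicate 1 or scrambled control replicate 2), ATG2B -0.037 to 0.30 (below 0 without antagomiR-138 replicate 3) and ATG4D -0.054 to 0.15 (below 0 without antagomiR-138 replicate 1). Under median scaling ATG4D gave -0.0072. Calls and direction of ULK2, ATG101, ATG14, WIPI1, WIPI2, ATG7, ATG10, GABARAPL2 and MAP1LC3A were kept under all 19 alternatives of processing and samples, the stricter thresholds aside.

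Same-numbered samples did not deviate together (correlations 0.00168, 0.0155 and 0.0526), and 3 of 6 samples correlated best with their own number, so the numbers were not taken to pair the samples. With a replicate block, 18 genes were higher (against 29.4% of all genes) and 4 lower. ATG9A and ULK1 were lost and PIK3R4 was gained. The methods' t-test called 17 higher (against 27.4% of all genes) and 4 lower after Benjamini-Hochberg adjustment and lost ATG4B and GABARAP.

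With no detection filter, 17 of 36 genes were higher, against 16.6% of all genes, and 5 were lower. The share of all genes called was then 32.5%, against 60.1% with the filter. The added gene was TFEB, at -0.34 (limma adjusted p = 0.0424), read from signals below background in both groups, and NBR1 gave -0.22 (adjusted p = 0.156). Without ATG13, the gene above background in 1 group only, a count chosen after seeing the data, 19 were higher and 3 lower.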
